A study of Mus musculus with 8 samples.

Results

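Immediate early and rapid response genes are transcribed within minutes of a signal from pre-existing factors, without new protein synthesis. The 36 genes described here were taken by symbol from a list of such genes, and all 36 are among the 23337 symbols of each table. They comprise 8 AP-1 and related bZIP factors, 7 EGR, KLF and other transcription factors, 3 NR4A nuclear receptors, 3 IER proteins, 4 dual-specificity phosphatases, 4 inhibitors and feedback genes of NF-kB, 3 ZFP36 mRNA decay factors, and the group of Rgs1, Rgs2, Cd69 and Ppp1r15a. Each value is a TPM, a length-corrected share of all transcripts, so levels can be compared between genes.

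The libraries came from naive T cells, sorted as CD62L-positive and CD44-low from mLNs and spleens of mice aged 4 weeks, and their titles carry the word FRESH. The groups were CD4 cells of WT mice (CD4 WT), CD4 cells of mice with a CD4-cre conditional knockout of Trappc1 (CD4 KO), and the same genotypes in CD8 cells (CD8 WT and CD8 KO), with 2 libraries each. CD4-cre acts in developing thymocytes that give rise to both lineages, and the labels do not say whether the WT mice carried Cre or whether the 2 libraries of a group came from separate mice. Trappc1 encodes a subunit of the TRAPP complexes, which tether vesicles on their way to the Golgi apparatus, and the series title concerns the survival of naive T cells.

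In T cells these genes answer the antigen receptor, cytokines and stress through the kinases ERK, JNK and p38, through calcium and NFAT, and through NF-kB. Fos, Jun, Egr and Nr4a factors carry the signal on to later genes, whereas the phosphatases, IκBα, A20 and the ZFP36 proteins shut it down. Many of them also respond to tissue dissociation and sorting, and the time from tissue to lysis is not stated in the labels.

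The targeted gene Trappc1 was lower in CD4 KO (30.5 and 32.8 TPM) than in CD4 WT (78.7 and 55 TPM). In CD8 cells it overlapped, with 56.9 and 45.6 TPM in KO and 81.2 and 40.3 TPM in WT, and the lower WT value belongs to the library labelled CD8 WT replicate 2, which goes against that label. That library stood apart in other ways. Its summed erythroid markers (9 genes) were 84191 TPM against 63.6 to 2019 TPM in the other 7 libraries, and its neutrophil, monocyte and macrophage markers (23 genes) were 31225 TPM against 450 to 2608 TPM. Its 14 B cell markers summed to 26247 TPM against 2074 to 15996 TPM, and its 12 T cell markers to 7647 TPM against 11715 to 17205 TPM. The defining lineage genes matched the sort, with Cd4 at 543 to 764 TPM in the CD4 libraries and at most 14.5 TPM in the CD8 libraries, and Cd8a at 163 to 548 TPM in the CD8 libraries and at most 4.1 TPM in the CD4 libraries. Estimated depth was 3.03 to 4.01 gigabases of aligned sequence per library. In bulk RNA fewer cells of a type and less RNA per cell cannot be told apart.

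**Figure D1:**
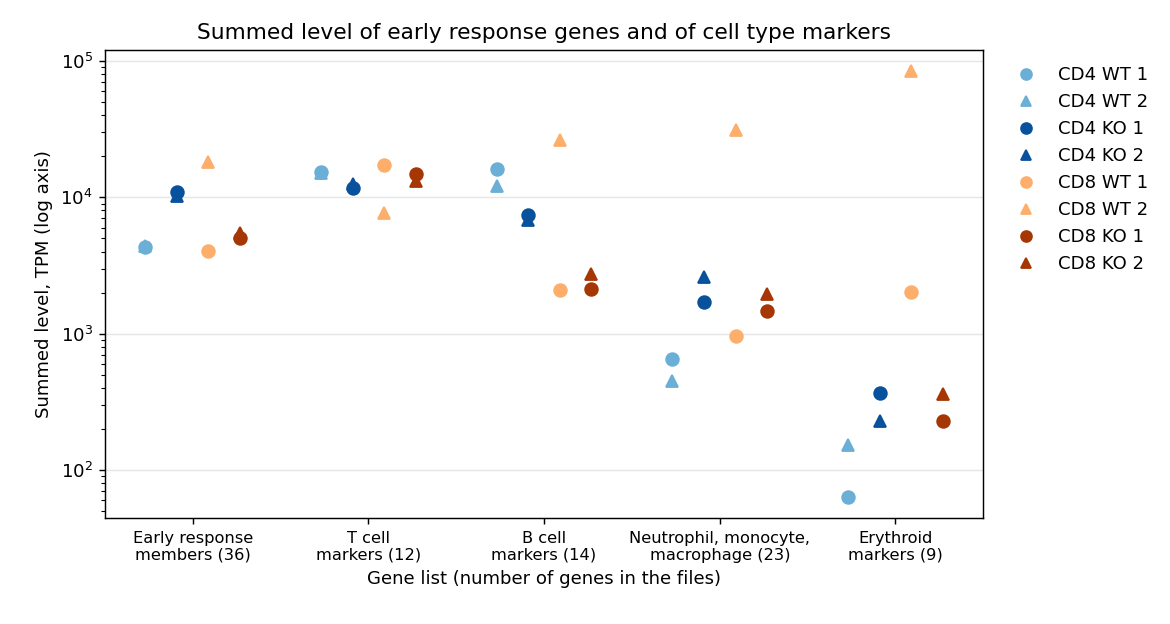
Summed TPM (log axis) of the 36 early response genes and of 4 lists of cell type markers, with 1 point per library (circle for replicate 1, triangle for replicate 2). The early response sum was 10930 and 10299 TPM in CD4 KO against 4340 and 4408 TPM in CD4 WT, and 18239 TPM in the library labelled CD8 WT replicate 2, which also holds the highest erythroid, B cell and neutrophil, monocyte and macrophage sums.

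The promoters of 4 members show the kinds of letters found next to the start sites of this set. Fos and Nr4a1 were among the members with the largest CD4 differences, Nfkbia had the highest mean level, and Dusp2 was lower in CD8 KO. The sequences are from RefSeq on GRCm38.p6, from 250 bases before to 50 bases after the start site, 5′ to 3′ on the strand of the gene. Capitals mark the core TGACG of the cyclic AMP response element on either strand (CGTCA where it lies on the opposite strand), the NF-kB consensus on either strand, and TATAAA on the strand of the gene.
Fos, chr12:85473640-85473939, plus strand: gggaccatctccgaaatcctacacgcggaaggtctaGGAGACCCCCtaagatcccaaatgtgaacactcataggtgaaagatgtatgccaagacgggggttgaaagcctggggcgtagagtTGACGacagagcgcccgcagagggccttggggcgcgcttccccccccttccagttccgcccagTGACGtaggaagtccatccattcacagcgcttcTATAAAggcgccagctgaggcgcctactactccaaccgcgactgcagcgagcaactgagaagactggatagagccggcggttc
Nr4a1, chr15:101266596-101266895, plus strand: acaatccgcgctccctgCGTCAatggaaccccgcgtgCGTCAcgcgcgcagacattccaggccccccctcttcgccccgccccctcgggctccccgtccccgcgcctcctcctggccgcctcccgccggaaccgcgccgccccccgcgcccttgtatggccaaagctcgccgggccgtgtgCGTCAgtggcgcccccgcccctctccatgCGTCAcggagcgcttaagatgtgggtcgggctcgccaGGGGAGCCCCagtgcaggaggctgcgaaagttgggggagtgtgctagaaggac
Nfkbia, chr12:55492598-55492897, minus strand: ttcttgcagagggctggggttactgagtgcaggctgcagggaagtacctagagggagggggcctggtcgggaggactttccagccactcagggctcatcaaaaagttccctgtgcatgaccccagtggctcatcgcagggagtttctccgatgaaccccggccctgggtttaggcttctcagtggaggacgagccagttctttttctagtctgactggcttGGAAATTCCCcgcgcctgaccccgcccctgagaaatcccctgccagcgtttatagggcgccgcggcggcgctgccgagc
Dusp2, chr2:127335909-127336208, plus strand: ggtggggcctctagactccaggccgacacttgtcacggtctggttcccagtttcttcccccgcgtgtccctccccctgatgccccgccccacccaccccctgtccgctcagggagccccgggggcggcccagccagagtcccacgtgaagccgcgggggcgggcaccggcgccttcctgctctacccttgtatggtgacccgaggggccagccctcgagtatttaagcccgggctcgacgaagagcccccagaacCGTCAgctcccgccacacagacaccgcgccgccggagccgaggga

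The Fos window holds 2 copies of TGACG, starting 129 and 66 bases before the start site, an NF-kB match starting 214 bases before it and TATAAA starting 33 bases before it. The Nr4a1 window holds 4 copies of TGACG, all on the opposite strand, with an NF-kB match 3 bases before the start site that reads on both strands. The Nfkbia window holds 1 NF-kB match, which starts 29 bases before the start site, and the Dusp2 window holds 1 copy of TGACG, 6 bases after the start site.

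Of the 36 members 27 have a promoter in the RefSeq table. TGACG occurred in 18 of the 27 (66.7%) against 23% of 27025 genes, and the full element TGACGTCA, which contains that core, in 4 (14.8%) against 2.03%. The NF-kB consensus occurred in 10 members (37%) against 9.55% of genes, and the CArG box, the binding motif of serum response factor, in 3 (11.1%, Egr2, Dusp5 and Zfp36) against 1.81%. TATAAA occurred in 5 (18.5%) against 9.77%, and the AP-1 motif TGACTCA in 2 (7.41%, Csrnp1 and Tnfaip3) against 5.95%. These shares describe letters in a window of 300 bases and not binding. The members are also compact, with a median genomic span of 4916 bases (1199 to 32105) against 19068 bases over the 11786 genes tested.

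In naive CD4 T cells most early response genes stood higher in the Trappc1 knockout. Of the 35 members tested 32 had a higher mean in CD4 KO and 3 a lower mean, with a median log2 difference of 1.44 against -0.16 over all 11786 genes. Both KO libraries lay above both WT libraries for 29 members, where this held for 21.7% of all genes, and below them for 1, Atf3, where this held for 36.5%. Among the tested members the largest ratios of mean TPM were 9.96-fold for Jun, 8.67-fold for Nr4a1 and 8.53-fold for Fos.

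In the fit over all 8 libraries 0 of the 35 members passed (limma, adjusted p of 0.05), where 0.713% of all genes were called either way, and 11 members had an unadjusted p under 0.05, as had 1967 of the 11786 genes. Of the 84 genes called either way 26.2% were higher, against 44.0% of 141 with median-of-ratios scaling and 71.4% of 21 with the trend against genomic span removed, with 0 members called under either. The median of all genes moved to 0.03 and 0.01 in these fits, and that of the members to 1.53 and 1.23. The spread of each gene is pooled over the 4 groups. The median absolute log2 difference between replicates over the 35 members was 2.51 in CD8 WT, 0.43 in CD4 WT, 0.21 in CD4 KO and 0.39 in CD8 KO. With the sign kept (replicate 2 minus replicate 1) the medians were 2.51, 0.01, -0.03 and 0.12 in the same order. Fits without either CD8 WT library, or without the pair, take their spread from the same CD4 WT, CD4 KO and CD8 KO libraries. Their CD4 calls are thus not separate checks. Without the CD8 WT library of replicate 2, the median standard error of the members was 0.31 in place of 0.77, with the same CD4 differences. In that fit 13 members passed, all higher in CD4 KO (2.26% of all genes were called higher), namely Fos, Jun, Junb, Egr1, Nr4a1, Dusp1, Nfkbia, Nfkbid, Nfkbiz, Tnfaip3, Zfp36, Zfp36l1 and Ppp1r15a. The same 13 genes passed without CD8 WT replicate 1 (2.23% of all genes called higher) and without the CD8 WT group (2.26%), 9 members passed with the CD4 groups fitted alone (0.721%), 13 passed with library weights (3.26%), and leaving out a CD4 or CD8 KO library left 0. Over 20 alternatives the adjusted p of these 13 ranged from 0.00227 to 0.829.

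**Figure D2:**
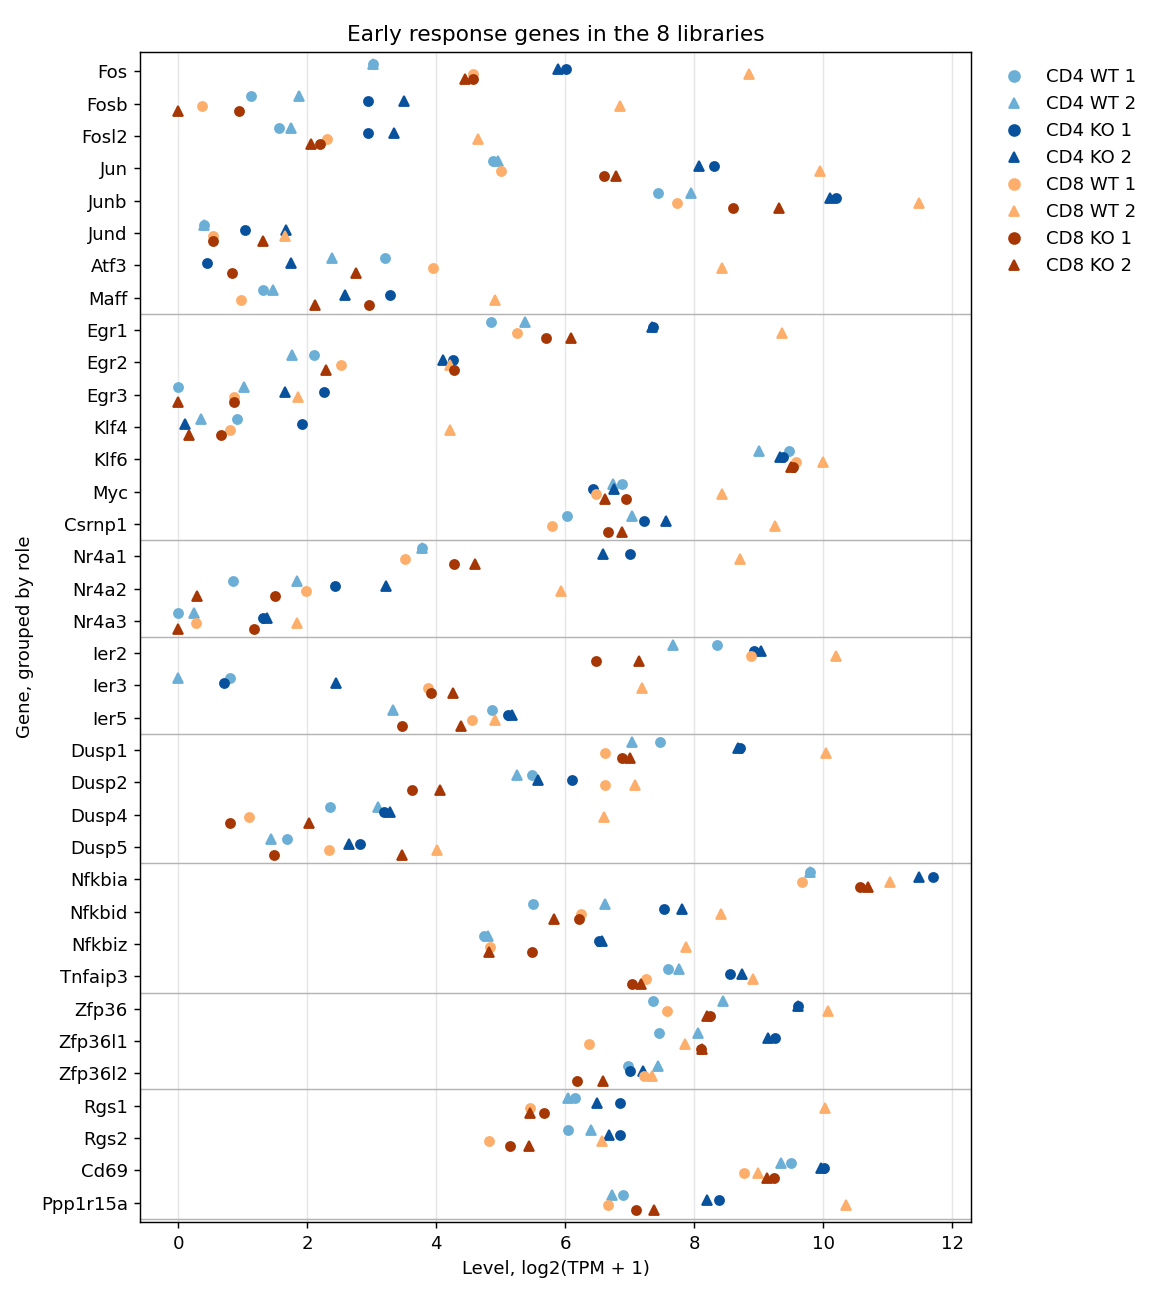
Level of each of the 36 genes in the 8 libraries as log2(TPM + 1), with genes grouped by role and points coloured by group (circle for replicate 1, triangle for replicate 2). The dark blue CD4 KO points lie to the right of the light blue CD4 WT points for 29 of the 35 tested genes, and the light orange triangle of the library labelled CD8 WT replicate 2 is the highest of 8 for 27 of 36 genes.

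Among the AP-1 and related factors, 7 of 8 were higher in CD4 KO with no overlap of libraries. Jun, which pairs with Fos proteins in the AP-1 complex, had 28.4 and 30.2 TPM in CD4 WT against 315 and 269 TPM in CD4 KO, a log2 difference of 3.27 ± 1.16 (SE here and below, limma on log2(TPM + 1), n = 2 libraries per group, adjusted p = 0.201). Fos had 7.14 and 7.14 TPM in WT against 63.6 and 58.2 TPM in KO, a log2 difference of 2.93 ± 1.03 (limma adjusted p = 0.196). Junb, a Jun relative with weaker activating function, had 172 and 247 TPM in WT against 1177 and 1096 TPM in KO, with 2.46 ± 0.91 (limma adjusted p = 0.22). In all 3 genes the KO replicates were close to each other and several times the WT level. Fosb had 1.19 and 2.68 TPM in WT against 6.68 and 10.3 TPM in KO, and the other higher members, Fosl2, Jund and Maff, stayed below 10 TPM in each CD4 library. Atf3, a stress-induced repressor of the same family, went the other way, at 8.24 and 4.21 TPM in WT and at 0.364 and 2.35 TPM in KO (log2 difference -1.70 ± 1.26, limma adjusted p = 0.532).

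The EGR factors, zinc finger proteins induced through ERK, were higher in CD4 KO, while Klf4, Klf6 and Myc overlapped. Egr1 had 27.8 and 40.7 TPM in CD4 WT against 164 and 162 TPM in CD4 KO, a log2 difference of 2.24 ± 0.99 (limma adjusted p = 0.295). Egr2, which restrains T cell activation, had 3.29 and 2.41 TPM in WT against 18.1 and 16.2 TPM in KO, with 2.24 ± 0.76 (limma adjusted p = 0.183). Csrnp1 had 64.2 and 130 TPM in WT against 148 and 188 TPM in KO. These groups did not overlap, and neither did those of Egr3, which was at most 3.78 TPM. Klf6 was among the 8 members with the highest mean level but did not separate the CD4 groups, at 712 and 513 TPM in WT and 664 and 646 TPM in KO. Myc, which drives growth on T cell activation, overlapped as well, at 117 and 106 TPM in WT and 85.6 and 107 TPM in KO. Klf4 had 0.874 and 0.272 TPM in WT against 2.77 and 0.0803 TPM in KO.

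Of the NR4A receptors, orphan nuclear receptors that follow antigen receptor signals, Nr4a1 had 12.8 and 12.7 TPM in CD4 WT against 127 and 95 TPM in CD4 KO, a log2 difference of 3.01 ± 1.23 (limma adjusted p = 0.255). Nr4a2 had 0.799 and 2.6 TPM in WT against 4.42 and 8.29 TPM in KO. Nr4a3 was listed at 0 and at 0.188 TPM in WT and at 1.5 and 1.59 TPM in KO, and its mean over all libraries was too low for the test. All 3 receptors lay higher in both KO libraries than in both WT libraries.

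The IER genes, short early response genes of less settled function, were higher on average in CD4 KO. Ier2 had 328 and 202 TPM in CD4 WT against 488 and 525 TPM in CD4 KO (log2 difference 0.97 ± 0.45, limma adjusted p = 0.314). Ier5 had 28.3 and 9.08 TPM in WT against 33.8 and 35.1 TPM in KO. Neither gene overlapped between the groups. Ier3 did, at 0.747 TPM and 0 in WT and at 0.644 and 4.46 TPM in KO.

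The dual-specificity phosphatases remove phosphate from MAP kinases, and all 4 lay higher in both CD4 KO libraries. Dusp1, which acts on p38 and JNK, had 177 and 131 TPM in CD4 WT against 419 and 410 TPM in CD4 KO, a log2 difference of 1.44 ± 0.83 (limma adjusted p = 0.416). Dusp2, a nuclear phosphatase of haematopoietic cells, had 44 and 37 TPM in WT against 68.2 and 46.9 TPM in KO (0.48 ± 0.37, limma adjusted p = 0.55). Dusp4 had 4.12 and 7.56 TPM in WT against 8.16 and 8.73 TPM in KO. Dusp5 had 2.22 and 1.7 TPM in WT against 6.06 and 5.27 TPM in KO. The distance between the groups was thus widest for Dusp1 and Dusp5 and small for Dusp2 and Dusp4.

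The 4 inhibitor and feedback genes of NF-kB were all higher. Nfkbia, which encodes the inhibitor IκBα and is itself an NF-kB target, had 890 and 884 TPM in CD4 WT against 3347 and 2862 TPM in CD4 KO. Its log2 difference was 1.80 ± 0.41, with the lowest adjusted p of the members for CD4 KO against WT in the 8-library fit (limma, 0.0826). Nfkbia made up 20.5% and 20.1% of the summed member level in CD4 WT and 30.6% and 27.8% in CD4 KO. Nfkbiz, a nuclear IκB protein that can also act as a coactivator of NF-kB targets, had 25.8 and 26.8 TPM in WT against 91.4 and 94.6 TPM in KO (1.79 ± 0.77, limma adjusted p = 0.283). Nfkbid, another nuclear IκB protein, had 44.5 and 97.2 TPM in WT against 184 and 224 TPM in KO (1.61 ± 0.63, limma adjusted p = 0.235). Tnfaip3, which encodes the ubiquitin-editing enzyme A20, had 193 and 217 TPM in WT against 375 and 426 TPM in KO (0.96 ± 0.46, limma adjusted p = 0.33). The 4 genes passed together in the fit that omits the library labelled CD8 WT replicate 2.

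The ZFP36 proteins bind AU-rich elements and speed the decay of cytokine and early response messages. Zfp36 had 164 and 347 TPM in CD4 WT against 778 and 780 TPM in CD4 KO, a log2 difference of 1.70 ± 0.67 (limma adjusted p = 0.239). Zfp36l1 had 174 and 267 TPM in WT against 607 and 565 TPM in KO (1.44 ± 0.44, limma adjusted p = 0.154). Zfp36l2, a relative known for roles in lymphocyte development, had 125 and 172 TPM in WT against 127 and 147 TPM in KO. It overlapped between the groups, with a difference of -0.10 that turned to 0.12 with median-of-ratios scaling.

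The remaining members were all higher in both CD4 KO libraries. Ppp1r15a, which encodes the GADD34 subunit that directs dephosphorylation of eIF2α, had 118 and 105 TPM in CD4 WT against 334 and 292 TPM in CD4 KO (log2 difference 1.48 ± 0.88, limma adjusted p = 0.434). Cd69, an early activation antigen that retains lymphocytes in tissue, had 726 and 650 TPM in WT against 1036 and 1004 TPM in KO (0.57 ± 0.26, limma adjusted p = 0.308). Rgs1, a regulator of G protein signalling, had 70 and 65.2 TPM in WT and 114 and 89.5 TPM in KO, without overlap. Rgs2 had 65 and 83.7 TPM in WT against 115 and 102 TPM in KO. Of this group Ppp1r15a alone passed in the fit that omits the library labelled CD8 WT replicate 2.

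**Figure D3:**
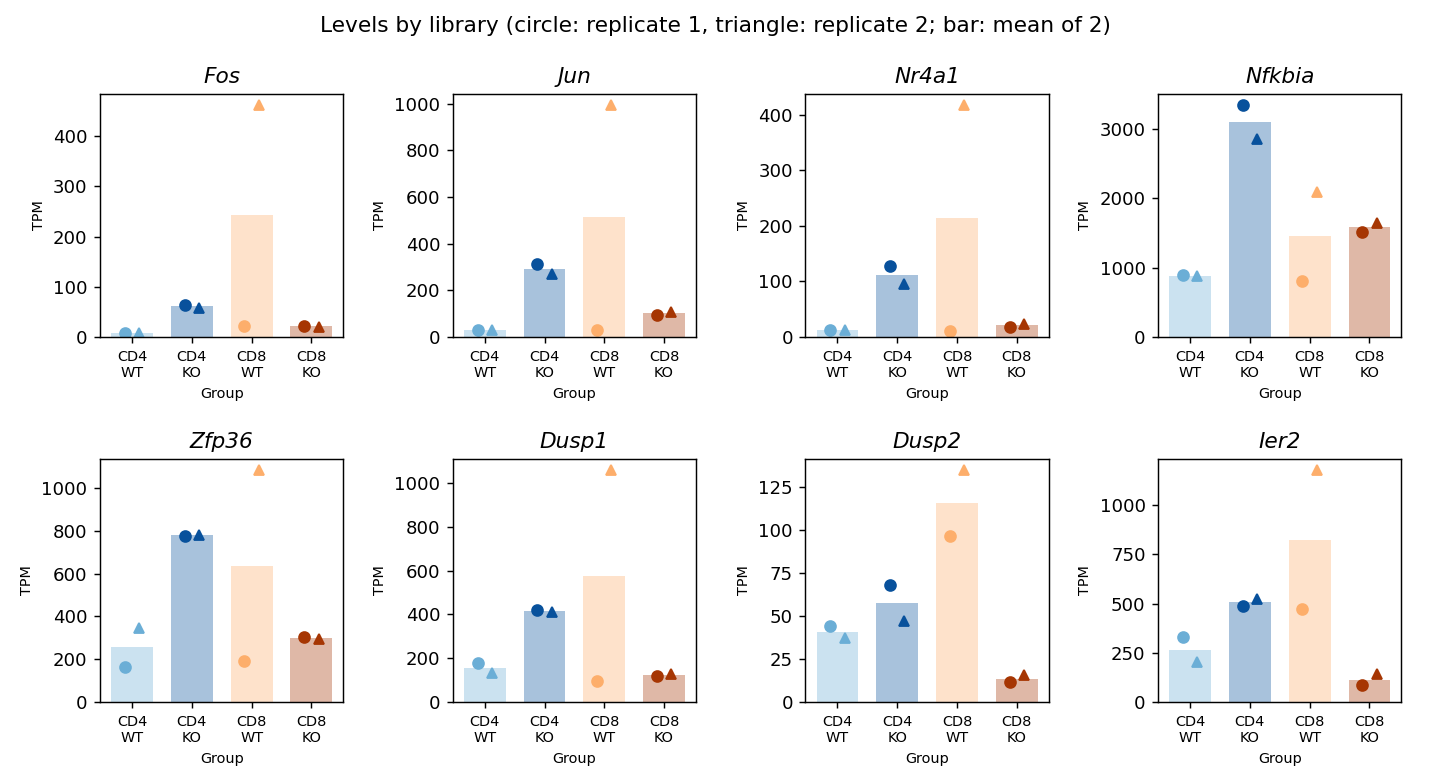
TPM of 8 members by group, with each bar the mean of 2 libraries, circles for replicate 1 and triangles for replicate 2. For Fos, Jun, Nr4a1, Nfkbia, Zfp36 and Dusp1 both CD4 KO libraries lie above both CD4 WT libraries, and for Dusp2 and Ier2 both CD8 KO libraries (11.4 and 15.6 TPM, 88.1 and 140 TPM) lie below every other library.

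Markers of other cells also differed between the CD4 groups. The 23 neutrophil, monocyte and macrophage markers summed to 655 and 450 TPM in CD4 WT and to 1711 and 2608 TPM in CD4 KO. Of them 7 and 5 were at 0 in WT and 1 and 0 in KO. Zeros over all symbols were fewer in KO as well, at 10090 and 7810 in CD4 WT against 5952 and 6919 in CD4 KO. Of the 22 neutrophil, monocyte and macrophage markers tested 21 were higher, with a median of 2.05. Lyz2, the lysozyme gene of those cells, had 86.9 and 49 TPM in WT against 631 and 926 TPM in KO, and Csf1r, the receptor that defines macrophages, had 1.72 and 0.38 TPM against 4.78 and 9.2 TPM. B cell markers went the other way, with 13 of 14 lower and sums of 15996 and 12059 TPM against 7380 and 6813 TPM. T cell markers were lower without overlap for 8 of 12, where this held for 36.5% of all genes. They were higher without overlap for 2, Cd3e and Ccr7, where this held for 21.7%. Their sums were 15281 and 14981 TPM in WT against 11715 and 12601 TPM in KO. Within these sums Il7r went from 3167 and 2973 TPM to 1000 and 1173 TPM, and Ccr7 from 1865 and 2000 TPM to 3215 and 3288 TPM. NK cell markers summed to 5.47 and 5.84 TPM in WT and to 20.7 and 20 TPM in KO, and erythroid markers to 63.6 and 152 TPM against 368 and 228 TPM. In the fit that omits the library labelled CD8 WT replicate 2, where 13 members passed, 6 neutrophil, monocyte and macrophage markers and 1 T cell marker were also called higher (limma, 2.26% of all genes), and 7 B cell and 3 T cell markers lower (4.26%). The TPM were also rescaled after removal of the B cell, NK cell, dendritic cell, erythroid and neutrophil, monocyte and macrophage markers. The median difference of the members was then 1.43. Such rescaling multiplies every remaining gene of a library by the same factor, so it cannot measure what these cells contribute. The part of these cells' own early response transcripts in the CD4 difference was not tested.

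Genes of the surrounding pathway were described from 3 further lists. For CD4 KO against WT over all 8 libraries, 1967 of all 11786 genes had an unadjusted p under 0.05 (limma). In that fit 0.713% of all genes were called either way. Of 28 factors and kinases upstream of early response genes, such as SRF, the CREB coactivators, MAP kinases and NF-kB subunits, 9 were higher and 19 lower in CD4 KO, with a median of -0.33 and 0 called either way (limma, 8 at an unadjusted p under 0.05). Mkl1, a coactivator of SRF, had 88.1 and 262 TPM in WT against 146 and 189 TPM in KO, and Ikbkb, a kinase that marks IκBα for destruction, had 198 and 230 TPM against 106 and 157 TPM. Of 36 other activity-induced genes tested, 32 were higher and 4 lower with a median of 0.86 and 0 called either way (limma, 6 at an unadjusted p under 0.05). In the fit that omits the library labelled CD8 WT replicate 2, 32 were again higher and 6 of the 36 passed, all higher, where 2.26% of all genes were called higher. Among them Gadd45b, a stress-induced regulator of MAP kinase signalling, went from 42.9 and 48.9 TPM to 388 and 388 TPM, Klf10 from 34.4 and 33.3 TPM to 247 and 250 TPM and the polo-like kinase gene Plk2 from 12.9 and 20.6 TPM to 222 and 130 TPM.

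Of 15 heat shock and chaperone genes, some of which also respond to handling of cells, 11 were higher, with a median of 0.63. In the fit over all 8 libraries 0 were called either way, against 0.713% of all genes. An unadjusted p under 0.05 was found for 8 of the 15 (limma), against 1967 of all 11786 genes. Without the library labelled CD8 WT replicate 2, 11 of 15 were again higher and 3 of these passed, where 2.26% of all genes were called higher. They were the ER chaperone gene Hspa5, which went from 336 and 104 TPM in WT to 881 and 703 TPM in KO, Hsp90aa1 from 369 and 284 TPM to 897 and 740 TPM and Dnaja1 from 151 and 176 TPM to 310 and 325 TPM. The part of cell handling in these levels was not tested.

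In naive CD8 T cells the direction of the early response genes depended on which WT library was used, while Dusp2 and Ier2 were lower in CD8 KO than in either of them. The library labelled CD8 WT replicate 2 lay above replicate 1 for all 35 tested members, where this held for 35.2% of all genes. Against both WT libraries 32 of 35 members had a lower mean in CD8 KO, with a median of -0.98 (0.05 over all genes). Both KO libraries lay below both WT libraries for 12 members, where this held for 19.1% of all genes, and above them for 2, Zfp36l1 and Cd69, where it held for 23.0%. Against CD8 WT replicate 1 alone 22 were higher and 13 lower, with a median of 0.30 (-0.07 over all genes). Against replicate 2 alone the median was -2.53 and 25 members passed (limma), where 6.60% of all genes were called lower. Marker sums differed in CD8 cells without that library too. Neutrophil, monocyte and macrophage markers summed to 954 TPM in CD8 WT replicate 1 and to 1458 and 1939 TPM in CD8 KO. Erythroid markers summed to 2019 TPM against 228 and 359 TPM. Effector and memory T cell markers (12 genes) summed to 406 TPM against 968 and 965 TPM, with 8 of the 12 higher and 4 lower in CD8 KO. NK cell markers summed to 2.44 TPM in that WT library against 24.4 and 18.5 TPM in CD8 KO, B cell markers to 2074 TPM against 2113 and 2745 TPM, and T cell markers to 17205 TPM against 14746 and 13233 TPM. Their part in the CD8 differences was not tested.

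Dusp2 and Ier2 were the members that fell in CD8 KO in the fit over all 8 libraries, where 0.187% of all genes were called lower, and 6 of 35 members had an unadjusted p under 0.05, as had 1778 of 11786 genes. Dusp2 had 96.9 and 135 TPM in CD8 WT against 11.4 and 15.6 TPM in CD8 KO, a log2 difference of -3.01 ± 0.37 (limma adjusted p = 0.0233). Its WT libraries were close to each other, unlike those of most members, and the KO mean was 8.58-fold lower. It also fell against CD8 WT replicate 1 alone, by 2.77 ± 0.38 on the log2 scale (limma adjusted p = 0.0476, 0.144% of all genes called lower). It passed in 10 of 19 alternatives, with an adjusted p from 0.00476 to 0.618, and in none that left out a CD4 or a CD8 KO library. Ier2 had 471 and 1177 TPM in CD8 WT against 88.1 and 140 TPM in CD8 KO, with -2.74 ± 0.45 (limma adjusted p = 0.0458). Against CD8 WT replicate 1 alone it was lower by a log2 difference of -2.08 ± 0.36 and did not pass (limma adjusted p = 0.0729), and it passed in 3 of 19 alternatives, with an adjusted p from 0.00392 to 0.618.

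**Figure D4:**
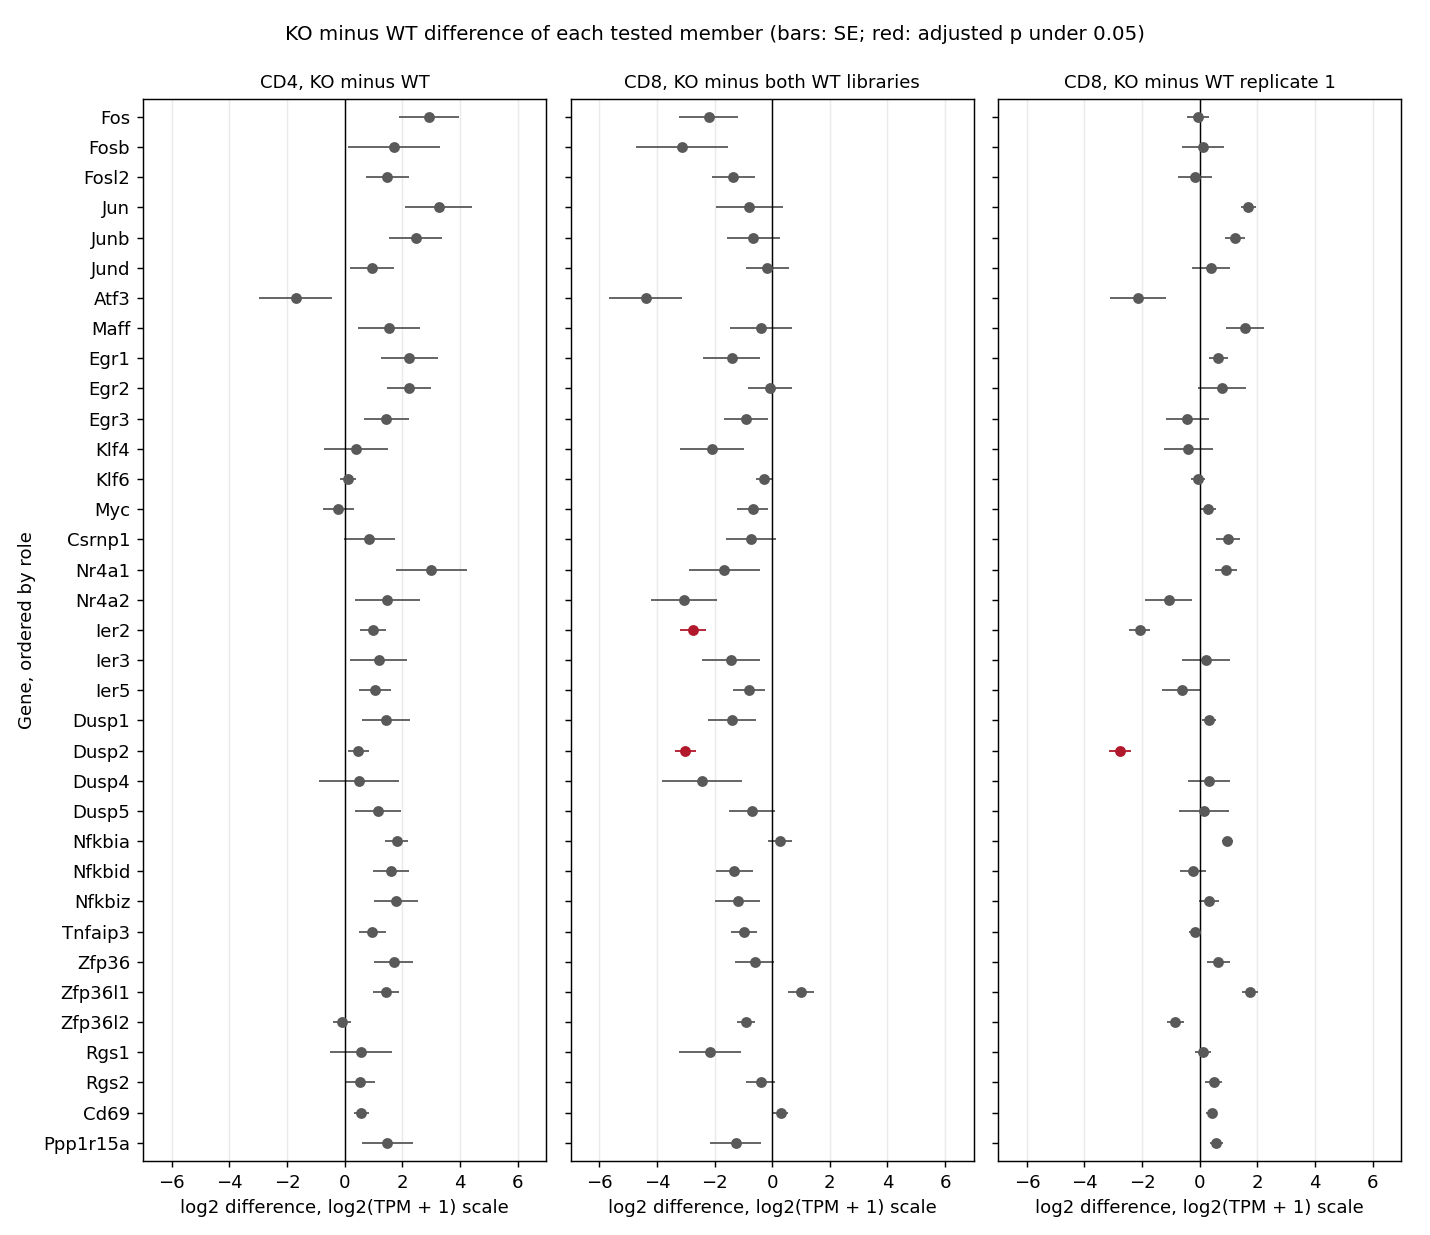
KO minus WT difference of each tested member on the log2(TPM + 1) scale with its SE, for CD4 cells, for CD8 cells against both WT libraries and for CD8 cells against WT replicate 1 alone, with members past the test in red. In CD4 cells 32 of 35 points lie above 0, in CD8 cells 32 of 35 lie below 0 against both WT libraries and 22 of 35 above 0 against replicate 1, with Dusp2 red in both CD8 panels.

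Of the transcription factor genes, Fos, Jun, Junb and Egr1 differed widely between the CD8 WT libraries. Fos had 22.8 and 462 TPM in CD8 WT against 22.7 and 20.8 TPM in CD8 KO, so that the KO level was close to replicate 1. Jun had 31.1 and 994 TPM in WT against 96 and 109 TPM in KO, above replicate 1 and far below replicate 2. Junb had 211 and 2874 TPM in WT against 386 and 634 TPM in KO. Against replicate 1 alone the log2 differences were 1.69 ± 0.25 for Jun and 1.23 ± 0.34 for Junb, neither of which passed (limma adjusted p = 0.0536 and 0.155). Over 19 alternatives the adjusted p ranged from 0.00149 to 0.944 for Jun and from 0.00663 to 0.939 for Junb, and both low ends belong to the fit without CD8 WT replicate 1, where the differences had the opposite sign (-3.27 and -2.54). Egr1 had 37.1 and 659 TPM in WT against 51 and 67.4 TPM in KO, and Egr2 had 4.75 and 17.6 TPM in WT and 18.3 and 3.9 TPM in KO. Klf6 was steadier, at 765 and 1021 TPM in WT and at 741 and 728 TPM in KO.

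Fosb, Nr4a2 and Klf4 were at most 2.94 TPM in each CD8 library except the one labelled CD8 WT replicate 2. Fosb had 0.288 and 114 TPM in CD8 WT against 0.927 TPM and 0 in CD8 KO. Nr4a2 had 2.94 and 60.2 TPM in WT against 1.84 and 0.227 TPM in KO, and Klf4 had 0.746 and 17.5 TPM against 0.589 and 0.122 TPM. Atf3 was lower in both KO libraries than in both WT libraries, at 14.4 and 346 TPM in WT and 0.775 and 5.79 TPM in KO, the same order as in CD4 cells. Nr4a1 had 10.5 and 417 TPM in WT against 18.4 and 23.4 TPM in KO.

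Among the feedback genes Nfkbia had 814 and 2094 TPM in CD8 WT against 1516 and 1652 TPM in CD8 KO, between the WT libraries. Zfp36l1 had the largest positive difference of the members, at 81.7 and 230 TPM in WT and at 275 and 277 TPM in KO (a 1.77-fold ratio of means, SE 0.44 on the log2 scale, limma adjusted p = 0.329). Zfp36l2 lay below both WT libraries, at 149 and 162 TPM in WT and at 71.4 and 94.7 TPM in KO (-0.91 ± 0.31, limma adjusted p = 0.233). These ZFP36 relatives thus stood in opposite order in CD8 cells, and neither difference passed. Tnfaip3 had 151 and 483 TPM in WT against 130 and 143 TPM in KO, and Nfkbid had 74.8 and 341 TPM against 73.4 and 55.5 TPM. Nfkbiz had 27.5 and 234 TPM in WT against 43.7 and 27.3 TPM in KO. Zfp36 had 190 and 1084 TPM in WT against 303 and 293 TPM in KO, which again lies between the WT libraries.

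Of the other phosphatase genes, Dusp1 had 96.9 and 1058 TPM in CD8 WT against 117 and 127 TPM in CD8 KO. Dusp4 had 1.14 and 96.6 TPM in WT against 0.74 and 3.08 TPM in KO, and Dusp5 had 4.06 and 15.2 TPM against 1.81 and 10.1 TPM. In contrast to Dusp2, these KO libraries overlapped with or lay close to WT replicate 1. Ier3 had 13.6 and 145 TPM in WT against 14.1 and 18.1 TPM in KO, and Ier5 had 22.6 and 29 TPM against 10.1 and 20 TPM. Ppp1r15a had 100 and 1315 TPM in WT against 136 and 166 TPM in KO. Rgs1 differed widely between the WT libraries, at 42.7 and 1047 TPM, with 50 and 43.1 TPM in KO. Rgs2 had 27.1 and 94.3 TPM in WT against 34.3 and 42.5 TPM in KO, and Cd69 differed little, at 437 and 505 TPM in WT and 605 and 558 TPM in KO.

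The wider activity-induced list turned in the same way. Of 36 genes 28 were lower against both CD8 WT libraries (median -0.99) and 22 were higher against replicate 1 alone (median 0.45). Gadd45b, Klf10 and Plk2 rose in CD8 KO against replicate 1 alone, where 0.170% of all genes were called higher. Gadd45b had 14.8 and 371 TPM in WT against 78.1 and 61 TPM in KO. Klf10 had 20.7 and 246 TPM in WT against 123 and 152 TPM in KO, and Plk2 had 9.45 and 362 TPM against 115 and 118 TPM. In all 3 genes the KO libraries lay between the WT libraries. With both WT libraries in the fit 0 of the 36 genes were called (limma, 7 at an unadjusted p under 0.05). Over all 11786 genes 35 were called in that fit and 1778 had an unadjusted p under 0.05.

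The knockout effects in CD8 and CD4 cells were compared by their difference. The KO minus WT difference was lower in CD8 than in CD4 cells for 35 of 35 tested members, with a median of -2.62 against 0.24 over all genes, and 0 of 35 passed (limma, 16 at an unadjusted p under 0.05), and so did 0 of 11786 genes (819 at an unadjusted p under 0.05). Without the library labelled CD8 WT replicate 2, 31 of 35 were lower, the median was -1.05 and again 0 passed (limma, 14 at an unadjusted p under 0.05, against 862 of all genes). Dusp2 (-3.48 ± 0.52) and Ier2 (-3.71 ± 0.63) had the smallest p-values of the members, with the CD4 KO above and the CD8 KO below its WT in each.

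Within the KO mice CD8 cells stood below CD4 cells, a comparison that does not draw on the CD8 WT levels. Of 35 members 31 were lower in CD8 KO, with a median of -1.20 (-0.02 over all genes), and the libraries did not overlap for 26 lower members, where this held for 25.8% of all genes, and 2 higher ones, where it held for 23.6%. In the fit over all 8 libraries 0 of 35 passed (limma, 10 at an unadjusted p under 0.05, against 1122 of all genes), with 0.280% of all genes called either way. Without the library labelled CD8 WT replicate 2, 8 were called lower, with 0.636% of all genes called lower, namely Dusp1, Dusp2, Ier2, Jun, Nfkbia, Nr4a1, Rgs2 and Tnfaip3. The differences of Nr4a1, Ier2 and Dusp1 were -2.35 ± 0.31, -2.18 ± 0.29 and -1.76 ± 0.20. Ier3 was the member that lay furthest in the other direction, at 14.1 and 18.1 TPM in CD8 KO against 0.644 and 4.46 TPM in CD4 KO. This comparison shares the KO libraries with those above. B cell markers were lower in CD8 KO without overlap for 14 of 14, with sums of 2113 and 2745 TPM against 7380 and 6813 TPM in CD4 KO, and 7 of them were called lower in the same fit as the 8 members. Effector and memory T cell markers summed to 968 and 965 TPM in CD8 KO against 244 and 226 TPM in CD4 KO. Of these 12 genes 7 were higher and 5 lower. Nkg7 had 396 and 357 TPM against 9.64 and 3.72 TPM, while Ctla4 had 25.6 and 15.8 TPM against 72.6 and 73.6 TPM. The neutrophil, monocyte and macrophage sums were 1458 and 1939 TPM in CD8 KO against 1711 and 2608 TPM in CD4 KO. Their part in the difference between the lineages was not tested.

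In the WT mice the order of the lineages again turned on the library labelled CD8 WT replicate 2. Against CD4 WT, 32 of 35 members were higher in CD8 WT with a median of 1.48 and 0 passed (limma, 7 at an unadjusted p under 0.05, against 1022 of all genes, with 0.195% of all genes called either way). For 13 of them both CD8 WT libraries lay above both CD4 WT libraries, where this held for 9.53% of all genes. With CD8 WT replicate 1 alone 20 were higher and 15 lower, with a median of 0.06 and 0 passed (limma, 8 at an unadjusted p under 0.05, against 945 of all genes, with 0.611% of all genes called either way). B cell markers summed to 2074 TPM in CD8 WT replicate 1 against 15996 and 12059 TPM in CD4 WT, with 14 of 14 lower, and erythroid markers to 2019 TPM against 63.6 and 152 TPM. Their part was not tested. Ier3 was higher in CD8 cells of either genotype, at 13.6 and 145 TPM in CD8 WT against 0.747 TPM and 0 in CD4 WT.

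The 5 highest members held 60.4% to 70.3% of the summed level in the 7 libraries other than the one labelled CD8 WT replicate 2, where they held 46.8% and Junb, at 15.8%, replaced Nfkbia as the highest. The summed level was 4051 TPM in CD8 WT replicate 1 and 5054 and 5499 TPM in CD8 KO. With the library labelled CD8 WT replicate 2 set aside, the highest value was in CD4 KO replicate 1 for 15 members and in CD4 KO replicate 2 for 13, against 3 in CD8 WT replicate 1, 2 in each CD8 KO library and 1 in CD4 WT replicate 2.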

How the data were processed

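Messenger RNA was sequenced from sorted naive T cells in 8 libraries, 4 groups of 2, grouped by cell type and genotype as the labels give them. TRIzol was used to extract the RNA and a SMARTER mRNA kit to build the libraries, per the labels' protocols, and reads were aligned with HISAT to mm10, per the submitters' processing notes. The program behind the gene tables is not given in the sources used. Each deposited table gives TPM per gene, which the authors scaled to 1000000 per library, per the file headers and column totals. The deposited tables also give FPKM, used here as an alternative, and coverage per gene (a signal), whose ratio to FPKM gave the depth estimate of 3.03 to 4.01 gigabases (the ratio lay within 1% of its median for 83.8% to 84.4% of genes). The labels name DESeq2 for the authors' own tests. Since the tables hold no read counts, no count test was run and no counting interval is given, and a gene listed at 0 is reported as listed.

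TPM was summed per symbol. A mean of at least 1 TPM was required (11786 genes, 35 of the 36 members), and the values were fitted as log2(TPM + 1) with limma 3.58.1 in R 4.3.3 (reading by data.table version 1.17.8), using an intensity trend, a mean for each group and 1 spread shared by the 4 groups (4 residual and 5.68 prior degrees of freedom), and p-values were adjusted over all genes by the Benjamini-Hochberg method at 0.05. This scale understates changes of low genes. "Called" and "passed" mean an adjusted p under 0.05. The 5 comparisons were KO against WT in each cell type, the difference between these effects, and CD8 against CD4 cells within each genotype. A fit without a library of CD8 WT leaves 1 there, which is assumed to vary like the other groups. An exact permutation test of 2 against 2 libraries cannot go below 0.333 (two-sided), so none is given. Since separate mice are not stated, p-values reflect only how these libraries vary, possibly for technical reasons. The replicate numbers did not pair the libraries (correlations of deviations from -0.04 to 0.09), so the unblocked fit was used.

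The steps were checked on simulated data before use. For CD4 KO against WT with all 8 libraries, 1.5% of genes given a log2 change of 1 were called. At changes of 2 and 3 the shares were 28.4% and 71.2%, so a gene not called may still differ. Of the unchanged genes 3 were called. The changes were placed only in better expressed genes, and each gene had the same spread in all groups. The shares need not hold for members at low levels or with unequal spread.

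The members and all lists were chosen with earlier results of these data known, so no test over the list was made. Values in every library were given for members called in any comparison with or without CD8 WT replicate 2, for up to 2 members per role with the largest difference in each KO comparison among those of at least 5 TPM, and for the 8 members with the highest mean. From other lists up to 3 called genes were named, or else the 2 with the highest mean, and Trappc1 and the marker genes were named to check the labels. Promoters are from RefSeq on GRCm38.p6. Python 3.11.15 with pandas 2.3.3, numpy 2.4.6 and matplotlib 3.10.9 was used for tables and figures. Alternatives were other pseudocounts (0.1 and 5), filters (none, and a mean of at least 5 TPM), FPKM, median-of-ratios scaling, rescaling without marker genes, removal of the span trend, library weights, fits of the compared groups alone, the replicate number as a block and each library left out. The fit without the CD8 WT group was added after seeing the data.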

Additional observations from a re-analysis of the deposited data

How the results depend on the processing

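The count of members called for KO against WT in CD4 cells, 0 as reported, was 9 with only the compared groups, 13 with library weights and 13 without the CD8 WT group, and 0 to 13 with each library left out (13 without either CD8 WT library). For CD8 cells, 2 as reported, it was 1 with a pseudocount of 0.1 or of 5, median-of-ratios scaling, FPKM, the span trend removed or the replicate block, 0 with no filter, only the compared groups or library weights, and 0 to 25 with each library left out (25 without CD8 WT replicate 1, 0 without any CD4 or CD8 KO library). The difference of the effects had 0 to 24 calls with a library left out and CD8 against CD4 cells in WT 0 to 25, each at its highest without CD8 WT replicate 1 and 0 elsewhere. CD8 against CD4 cells in KO, 0 as reported, had 10 with only the compared groups (141 of all 11786 genes called). It had 7 with library weights (353 genes called) and 8 without the CD8 WT group (158 genes called). Its median member difference was -1.27 to -1.20 with each library left out. The numbers did not pair the libraries, and the replicate block left the other 4 comparisons at 0 members called. Fits that leave a library out also have fewer samples. Without CD8 WT replicate 2 the median standard error of the members in CD4 KO against WT was 0.31 in place of 0.77. The cause of each of these shifts in calls was not tested. For comparisons that do not use CD8 WT, fits without either CD8 WT library or without that group share their spread. They are not separate checks.

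The median member difference stayed positive in CD4 cells under all 20 alternatives (0.84 with a pseudocount of 5, 1.06 with FPKM, 1.16 to 1.44 with a library left out). In CD8 cells it was -2.53 without CD8 WT replicate 1 and 0.30 without CD8 WT replicate 2, the setting that reversed it. With a library left out, CD4 differences that changed sign were those of Klf4 (-0.52 to 1.29), Klf6 (-0.12 to 0.35) and Zfp36l2 (-0.33 to 0.13, and 0.12 with median-of-ratios scaling). In CD8 cells, the ranges that crossed 0 among the members followed with each library left out were Fosb -6.37 to 0.11, Jun -3.27 to 1.69, Junb -2.54 to 1.23, Egr1 -3.47 to 0.65, Egr2 -1.08 to 0.90, Nr4a1 -4.27 to 0.92, Ier3 -3.11 to 0.22, Dusp1 -3.11 to 0.33, Dusp4 -5.20 to 0.32, Dusp5 -1.69 to 0.29, Nfkbia -0.40 to 0.96, Nfkbiz -2.72 to 0.32, Zfp36 -1.86 to 0.65, Rgs1 -4.47 to 0.12, Rgs2 -1.28 to 0.48 and Ppp1r15a -3.12 to 0.58. A further 4 members changed sign without CD8 WT replicate 2, Csrnp1 from -0.75 to 0.98, Maff from -0.40 to 1.57, Myc from -0.68 to 0.30 and Jund from -0.17 to 0.39. With the span trend removed Nfkbia was at -0.09 and Cd69 at -0.01 in CD8 cells. The leave-one-out ranges of Egr2 and Dusp5 were set at one or both ends by a CD8 KO library.

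The difference of the effects has no fit of the compared groups alone, since it uses every group. TPM keeps no read counts, so depth limits members near 0 (Nr4a3, Egr3, Klf4, Fosb) by an amount that cannot be given here.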
